A study of Mus musculus with 2 samples.

Results

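The ubiquitin-specific proteases (USPs) are the largest family of deubiquitinases, the enzymes that take ubiquitin off proteins. Members were the protein-coding genes of the deposited table whose symbol is Usp followed by a digit, apart from 2 such genes that were not analysed here, which gave 54 of 41214 genes. Members were taken by symbol alone, so Usp6nl, which encodes a GTPase-activating protein for Rab GTPases and no protease, is included. RNA came from germinal centre B cells of C57BL/6 mice on day 10 after intravenous injection of 1000000000 sheep red blood cells, sorted from spleen on B220, Fas and GL7 and against CD138. There were 2 libraries, 1 labelled Cbl-/-Cblb-/-, from mice lacking both Cbl and Cblb per the label, and 1 labelled wild type. Both groups share strain, immunization, day and sort, and the sources used here do not give how many mice each library pooled, their age, or in which cells the genes were deleted.

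USPs are cysteine proteases. They cut ubiquitin from substrates or from the ends of ubiquitin chains and so oppose E3 ligases such as Cbl and Cbl-b, which attach ubiquitin to activated receptors and kinases. In B cells, members of the family act on histones, on DNA repair factors, on signalling adaptors and on receptors passing through endosomes.

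Values are reads per gene divided by a size factor of each library, as the authors deposited them, and are called normalized reads. The library with the Cbl-/-Cblb-/- label had 38223328 reads counted on genes and the library with the wild type label 26749540. With 1 library per group no difference has a replicate check and no test was run, so intervals in brackets are 95% intervals of a ratio that cover counting error only. A gene is called higher or lower from a 2-fold ratio, a log2 ratio of 1 or -1, once it reached a floor of 100 normalized reads in 1 library or both. The targeted genes had more reads in the library labelled as lacking them. Cbl had 1183 normalized reads in the library with the Cbl-/-Cblb-/- label and 169 in the library with the wild type label. Cblb had 2839 and 1001. After the length adjustment described below, the log2 ratio was 2.49 for Cbl and 0.91, short of 2-fold, for Cblb. Adjusted on GENCODE M21 exon lengths, an alternative chosen after seeing the data, they stood at 1.48 and 0.43. Values cover whole genes, reads over single exons were not examined, and whether the labels hold was not tested. Directions below are therefore between labelled libraries and not between genotypes. Summed over 10 germinal centre B cell markers the library with the Cbl-/-Cblb-/- label had 206556 normalized reads and the library with the wild type label 208192. Other cell types gave 26.6 against 55.8 (6 T cell markers), 1004 against 1647 (5 of 6 listed macrophage markers), 7462 against 5789.9 (4 of 5 listed plasma cell markers), 31.5 against 94.4 (5 erythroid markers) and 0.699 against 4.29 (4 liver markers, 3 of them at 0 in both libraries). The part of these cells in the results below was not tested. In bulk RNA, fewer cells of a type and less RNA per cell cannot be told apart.

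Of the 54 USP genes 42 passed the floor, 36 of them in both libraries, 5 only in the library with the Cbl-/-Cblb-/- label (Usp53, Usp44, Usp54, Usp46 and Usp18) and 1 only in the library with the wild type label (Usp35). A member that passed in 1 library alone was bound to differ. Another 6 had reads but stayed under the floor, and 6 had no read in either library. Together the 54 genes took 0.423% of reads (Wilson 95% interval 0.421 to 0.425) in the library with the Cbl-/-Cblb-/- label and 0.136% (0.135 to 0.138) in the library with the wild type label. Their normalized reads summed to 113115 in the library with the Cbl-/-Cblb-/- label and 52093 in the library with the wild type label, 2.17-fold higher (2.15 to 2.20) and 3.11-fold higher when scaled to total reads.

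Among the 42 members over the floor, 26 (61.9%) were 2-fold or more higher and 0 were 2-fold or more lower in the library with the Cbl-/-Cblb-/- label. The 26 include the 5 members that passed the floor only in that library and so were bound to differ. Over all 10443 genes past the same floor, in 1 library or both, the shares were 27.8% higher and 23.3% lower. Scaled to total reads instead, 31 members were higher and 0 lower, against 41.9% and 13.7% of all genes. The median log2 ratio of the members was 1.26, against 0.15 over all genes, and their range was -0.54 (Usp2) to 3.02 (Usp53). In 35 members the counting interval lay wholly above a ratio of 1, in 2 (Usp2 and Usp5) wholly below it, and in 5 it included 1. The same count was not taken over all genes, so these numbers describe the members only and show nothing particular to the family. Scaled to total reads, Usp5 was above a ratio of 1 too. In the authors' deposited table, where p-values rest on 1 library per group, 1 of 48 members had an unadjusted p under 0.05, which was Usp53 with p = 0.0495 and an adjusted p of 0.944.

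**Figure D1:**
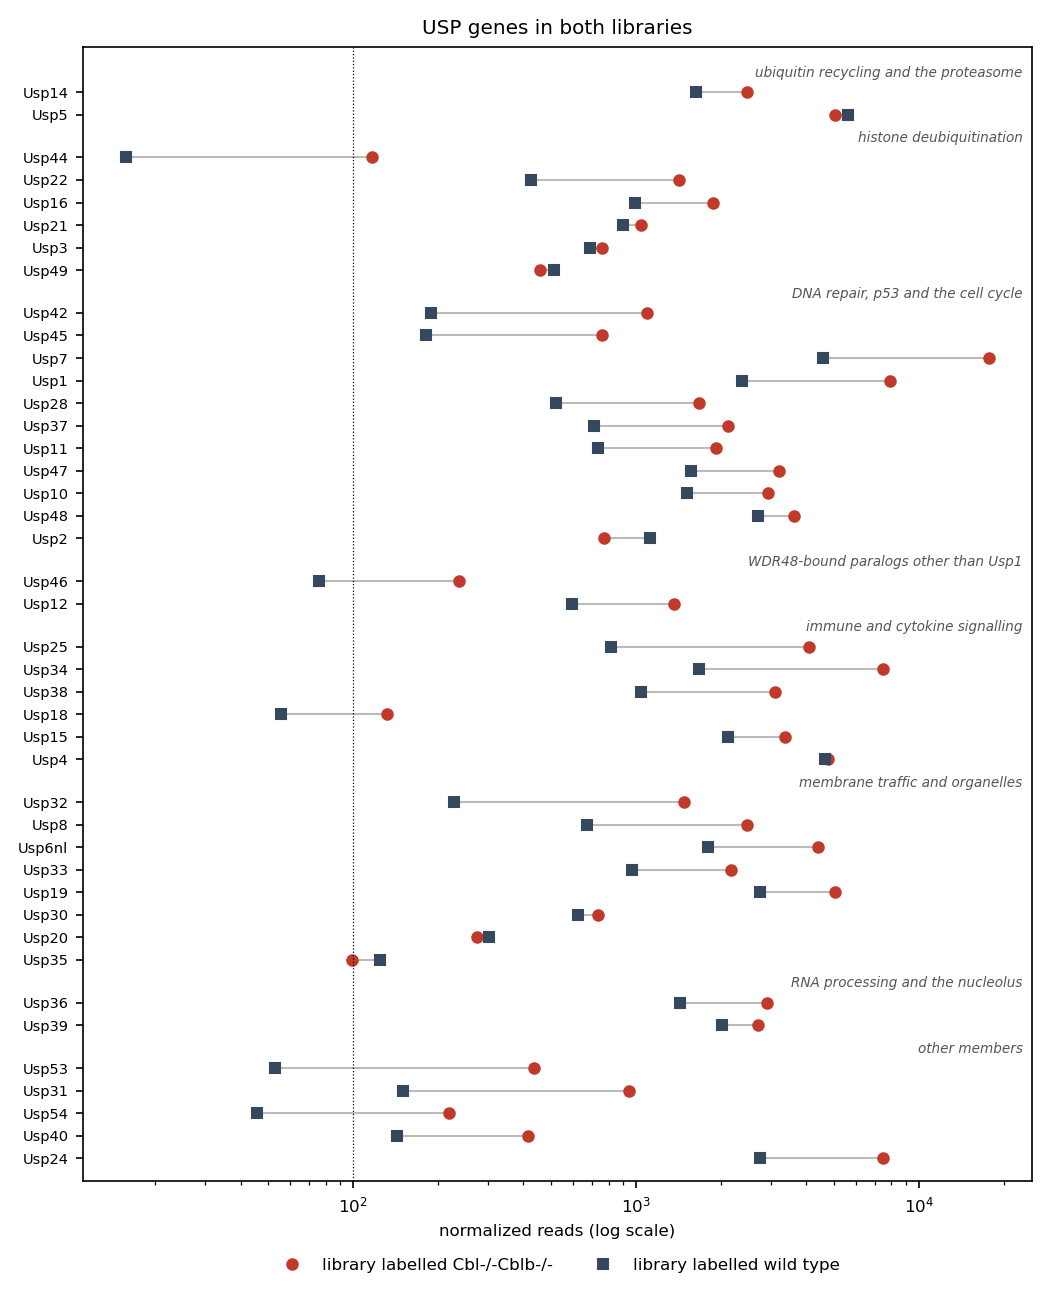
Normalized reads (horizontal log axis) of the 42 USP genes over the floor in the library with the Cbl-/-Cblb-/- label (circles) and the library with the wild type label (squares), grouped by role, with the floor of 100 as a dotted line. The circle lies to the right of the square in 37 genes, and Usp7 has the largest value in the library with the Cbl-/-Cblb-/- label (17683).

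Part of this pattern goes with gene length. Over all genes past the floor, the log2 ratio correlated with deposited gene length (Spearman's rho 0.54 across 10443 genes, which share 2 libraries and are not independent). The median USP gene had 5495 bases against 3652 over all genes, and 37 of 42 were longer than that of all genes. A fit of the log2 ratio on log2 length and its square over all genes took up 23.7% of the variance. In the length-adjusted ratio, the residual of that fit with the median of all genes added back, 17 members (40.5%) were at least 2-fold higher and 1 (Usp49) lower, against 21.1% and 17.4% of all genes. The 17 include Usp53, Usp44, Usp54, Usp46 and Usp18, which passed the floor only in the library with the Cbl-/-Cblb-/- label and so were bound to differ as deposited. The adjusted median was 0.63 for the members and 0.08 for all genes. Among genes of at least 5681 bases, 13 of 19 members and 54.0% of 2611 genes were at least 2-fold higher as deposited.

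Within the family itself the ratio hardly followed length, with a Spearman's rho of 0.09 across the 42 members. It was more closely related to the GC content of the longest transcript, with a rho of -0.53 across the 42 members and -0.40 across 10386 genes. For the length-adjusted ratio, the rho with GC content was -0.33 across the members and -0.37 across the 10386 genes, so no closer in the family. The 26 members at least 2-fold higher had a median GC content of 46.5% and a range of 39.4 to 55.9%. The other 16 members had a median of 52.3% and a range of 38.2 to 59.1%, so the groups overlapped. These correlations are descriptions across genes that share the same 2 libraries. The parts of length and GC content in the ratio of any single member were not tested beyond the adjusted values given.

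**Figure D2:**
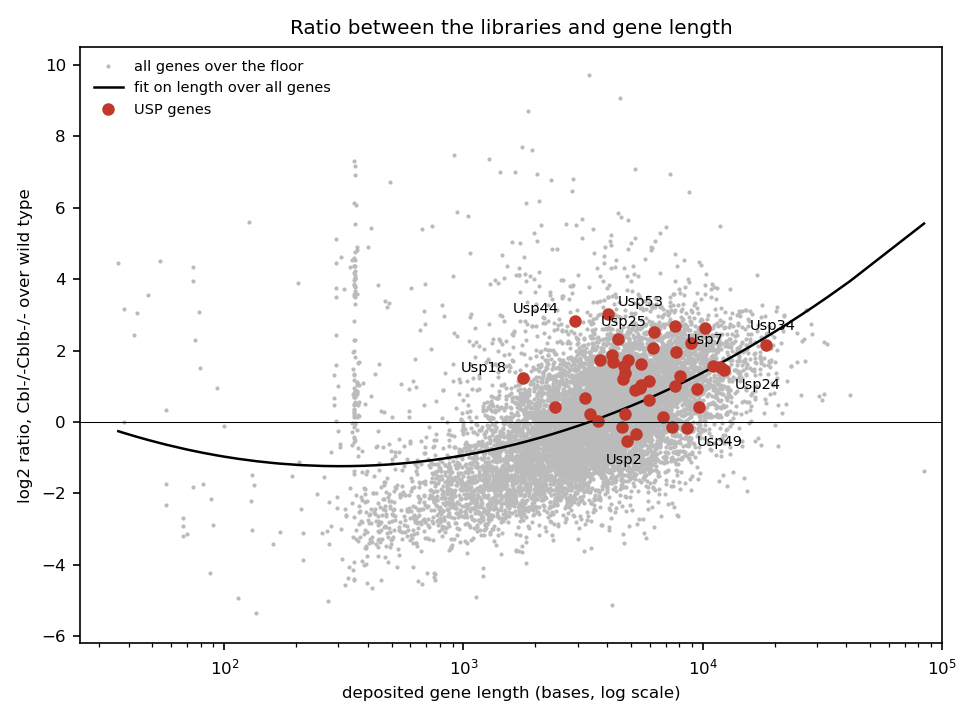
Log2 ratio of the library with the Cbl-/-Cblb-/- label over the library with the wild type label (vertical axis) against deposited gene length in bases (horizontal log axis) for 10443 genes over the floor (grey points), the 42 USP genes (large points) and the fit on length over all genes (line). Most USP genes lie to the right of the median gene, with 28 above the line and 14 below it.

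The start regions of the members at both ends of the range are shown because the ratio differs most between them: the 2 highest and 2 lowest members that passed the floor in both libraries and have an entry in the RefSeq promoter table (GRCm38.p6). Each is the 250 bases before a RefSeq start, 5′ to 3′ on the gene's strand, with GC boxes (GGGCGG, or CCGCCC on the other strand) in capitals. Against the genes as GENCODE M21 annotates them, the RefSeq starts used for Usp2 and Usp32 lie inside the gene, so that most of the Usp32 window and the whole Usp2 window do too, and the start used for Usp31 lies outside it. The first bases after the Usp2 and Usp31 starts were found in no M21 transcript of these genes.
Usp32 (chr11:85139956-85140205, minus strand): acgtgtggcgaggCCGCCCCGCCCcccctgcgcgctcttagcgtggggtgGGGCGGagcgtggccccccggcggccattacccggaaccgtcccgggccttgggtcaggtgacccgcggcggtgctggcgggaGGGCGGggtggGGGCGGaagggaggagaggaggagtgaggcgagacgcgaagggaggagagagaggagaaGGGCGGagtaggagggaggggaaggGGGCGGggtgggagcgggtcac
Usp31 (chr7:121707443-121707692, minus strand): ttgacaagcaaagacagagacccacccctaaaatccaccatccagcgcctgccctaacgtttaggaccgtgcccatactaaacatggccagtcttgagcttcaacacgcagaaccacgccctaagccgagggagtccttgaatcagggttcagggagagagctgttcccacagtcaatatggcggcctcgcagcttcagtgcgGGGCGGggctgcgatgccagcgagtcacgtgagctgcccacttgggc
Usp2 (chr9:44084670-44084919, plus strand): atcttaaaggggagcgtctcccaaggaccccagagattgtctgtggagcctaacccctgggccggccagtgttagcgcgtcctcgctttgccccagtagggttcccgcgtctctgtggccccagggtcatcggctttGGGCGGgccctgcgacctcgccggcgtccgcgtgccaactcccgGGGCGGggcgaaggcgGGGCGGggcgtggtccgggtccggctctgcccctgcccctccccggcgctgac
Usp49 (chr17:47630440-47630689, plus strand): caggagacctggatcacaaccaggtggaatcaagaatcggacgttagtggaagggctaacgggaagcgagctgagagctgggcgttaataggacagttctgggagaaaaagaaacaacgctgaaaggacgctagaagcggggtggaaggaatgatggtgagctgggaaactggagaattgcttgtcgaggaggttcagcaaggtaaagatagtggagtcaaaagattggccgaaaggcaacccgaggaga
The Usp32 window held 7 GC boxes, Usp31 held 1, Usp2 held 3 and Usp49 held 0, and GC content was 75.2, 58.4, 71.6 and 51.2%. Of 54 members 42 matched the promoter table by symbol, 32 of them over the floor. A GC box on either strand was present in 15 of 19 windows of members at least 2-fold higher, in 8 of 13 windows of the other members and in 32.7% of 32851 windows in the table. The E-box CACGTG was in 2 of 19 and 2 of 13 windows, against 6.02% of the table, the CCAAT box CCAAT in 3 of 19 and 2 of 13 (33.8%), and the cAMP response element TGACGTCA in 0 of 19 and 0 of 13 (1.55%). The shares of the table cover every window in it, with no limit to genes over the floor or to 1 window per gene. The member windows have both limits, so the shares are not like for like and show no trait of the family. These are matches of letters in a window and no evidence of binding.

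Of the enzymes that feed free ubiquitin back to the cell, Usp5 and Usp14 passed the floor and neither reached a 2-fold difference as deposited. Usp5, which takes apart unanchored ubiquitin chains, had 5065 normalized reads in the library with the Cbl-/-Cblb-/- label and 5607 in the library with the wild type label. Its ratio was 0.903 (0.869 to 0.939), which turned to a log2 ratio of 0.37 when scaled to total reads. Usp14, which is bound to the proteasome and trims chains from arriving substrates, had 2472 and 1624 normalized reads in the Cbl-/-Cblb-/- and wild type libraries, a 1.52-fold higher value (1.42 to 1.63) with an adjusted log2 ratio of 0.09. Scaled to total reads, Usp14 was past the 2-fold line, at a log2 ratio of 1.12. Exons of Thoc1 on the other strand overlap 26.0% of the exon bases of Usp14, and the strand setting of the counting is not given in the sources used here. Usp13, the close paralog of Usp5, had 0 reads in both libraries, where a count of 0 allows up to 2.10 and 4.29 normalized reads in the Cbl-/-Cblb-/- and wild type libraries.

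Histone deubiquitinases differed among themselves. Of 6 over the floor 2 were at least 2-fold higher and 0 lower, against 27.8% and 23.3% of all genes, and after length adjustment 2 were higher and 1 lower, against 21.1% and 17.4%. Usp22, the H2B deubiquitinase of the SAGA coactivator complex, had 1415 normalized reads in the library with the Cbl-/-Cblb-/- label and 426 in the library with the wild type label, 3.32-fold higher (2.94 to 3.76; adjusted log2 ratio 1.46). Its partners in that module, Atxn7 (1285 against 286; log2 ratio 2.16, adjusted 1.47) and Atxn7l3 (3126 against 883; 1.82, adjusted 1.75), were also higher in the library with the Cbl-/-Cblb-/- label, while Eny2, the small subunit, had 991 against 1888 (-0.93, adjusted -0.47). Usp27x and Usp51, which can take the place of Usp22 in the module, were nearly absent, with 16 and 15 reads in the library with the Cbl-/-Cblb-/- label and 3 and 0 in the library with the wild type label. Set against the floor of 3 reads in that library, Usp51 was at least 2.44-fold higher, and the counting interval, which also holds the error of the 15 reads, began lower, at 1.75-fold.

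Usp44, an H2B deubiquitinase also known as a brake on mitotic exit, had 117 normalized reads in the library with the Cbl-/-Cblb-/- label and 15.7 in the library with the wild type label. It was 7.42-fold higher on 167 and 11 reads (4.04 to 15.1), and its adjusted log2 ratio of 3.10 was the highest among the members. Usp44 passed the floor only in the library with the Cbl-/-Cblb-/- label. Usp16, an H2A deubiquitinase, had 1866 and 990.0 normalized reads (log2 ratio 0.91, adjusted -0.23). Usp3 and Usp21, which also act on H2A, had ratios of 1.10 (0.989 to 1.23) and 1.16 (1.05 to 1.27). Usp49, an H2B deubiquitinase linked to splicing, had 459 normalized reads in the library with the Cbl-/-Cblb-/- label and 514 in the library with the wild type label, a ratio of 0.894 (0.785 to 1.02). After adjustment Usp49 was the lowest of the members, at -1.17, but exons of other annotated genes cover 52.3% of its exon bases, mostly of a gene on the same strand, so its reads are uncertain in origin.

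Among the 11 members over the floor that act in DNA repair, on p53 or in the cell cycle, 8 were at least 2-fold higher and 0 lower, with a median log2 ratio of 1.58 (adjusted 1.08). The shares of all genes were 27.8% and 23.3%. After length adjustment 6 of 11 were at least 2-fold higher, against 21.1% of all genes, and after adjustment for length and GC content 4 of 11, against 18.9%. Usp7, which deubiquitinates MDM2 and p53, had 17683 normalized reads in the library with the Cbl-/-Cblb-/- label and 4585 in the library with the wild type label. That was 3.86-fold higher (3.72 to 4.002). Its log2 ratio of 1.95 was 1.08 after length adjustment and 0.87, short of 2-fold, after adjustment for length and GC content. Usp7 made up 15.6% of all USP reads in the library with the Cbl-/-Cblb-/- label and 8.80% in the library with the wild type label. Gmps, a binding partner of USP7, had a log2 ratio of 1.16 that was -0.23 after adjustment.

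Usp1, which removes ubiquitin from FANCD2 and PCNA, had 7907 normalized reads in the library with the Cbl-/-Cblb-/- label and 2369 in the library with the wild type label, 3.34-fold higher (3.17 to 3.52). Its adjusted log2 ratio of 1.78 was close to the 1.74 as deposited. Its activator Wdr48 (UAF1) had 1941 and 1375 normalized reads, a log2 ratio of 0.50 (adjusted 0.51). Usp12 and Usp46, paralogs that WDR48 also activates, were both higher: Usp12 had 1364 against 594 normalized reads (2.30-fold, 2.06 to 2.56) and Usp46 236 against 75.8 (3.12-fold, 2.33 to 4.25). After length adjustment Usp12 stood at 0.99, just short of 2-fold, and Usp46 at 1.21, and with GC content added both were short of it, at 0.99 and 0.79. Wdr20, which joins WDR48 in complexes with USP12 and USP46, had 482 against 196 (log2 ratio 1.29, adjusted 1.76).

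Usp42, which acts on p53, had 1094 normalized reads in the library with the Cbl-/-Cblb-/- label and 189 in the library with the wild type label, 5.79-fold higher (4.85 to 6.97; adjusted log2 ratio 1.96). Usp45, a deubiquitinase of the repair nuclease subunit ERCC1, had 756 and 180.3 normalized reads in the Cbl-/-Cblb-/- and wild type libraries, 4.19-fold higher (3.48 to 5.08; adjusted 1.49). Usp28, known for stabilizing MYC, had 1667 and 521, 3.20-fold higher (2.87 to 3.58; adjusted 1.58). Usp11, which binds BRCA2, stood at 1.38 (adjusted 1.15). The ratio of Usp37, a cyclin A deubiquitinase, was 1.58 as deposited and 0.19 after adjustment for its 11081 bases. Usp47 (1.03, adjusted 0.61) lay just past the 2-fold line, and Usp10, a p53 deubiquitinase, just short of it (0.94, adjusted 0.54). G3bp1 and G3bp2, stress granule proteins that bind USP10, stood at -0.04 and 1.79.

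Usp2 was the lowest member over the floor. It encodes a deubiquitinase known to stabilize cyclin D1 and had 771 normalized reads in the library with the Cbl-/-Cblb-/- label and 1122 in the library with the wild type label, a 1.45-fold lower value (1.33 to 1.60) with an adjusted log2 ratio of -0.79. Scaled to total reads its log2 ratio was -0.02. Usp48 had 3628 and 2711 normalized reads in the Cbl-/-Cblb-/- and wild type libraries, 1.34-fold higher (1.27 to 1.41), while for its length of 9686 bases it lay below the line (adjusted -0.76). Usp29 had 0 reads in both.

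**Figure D3:**
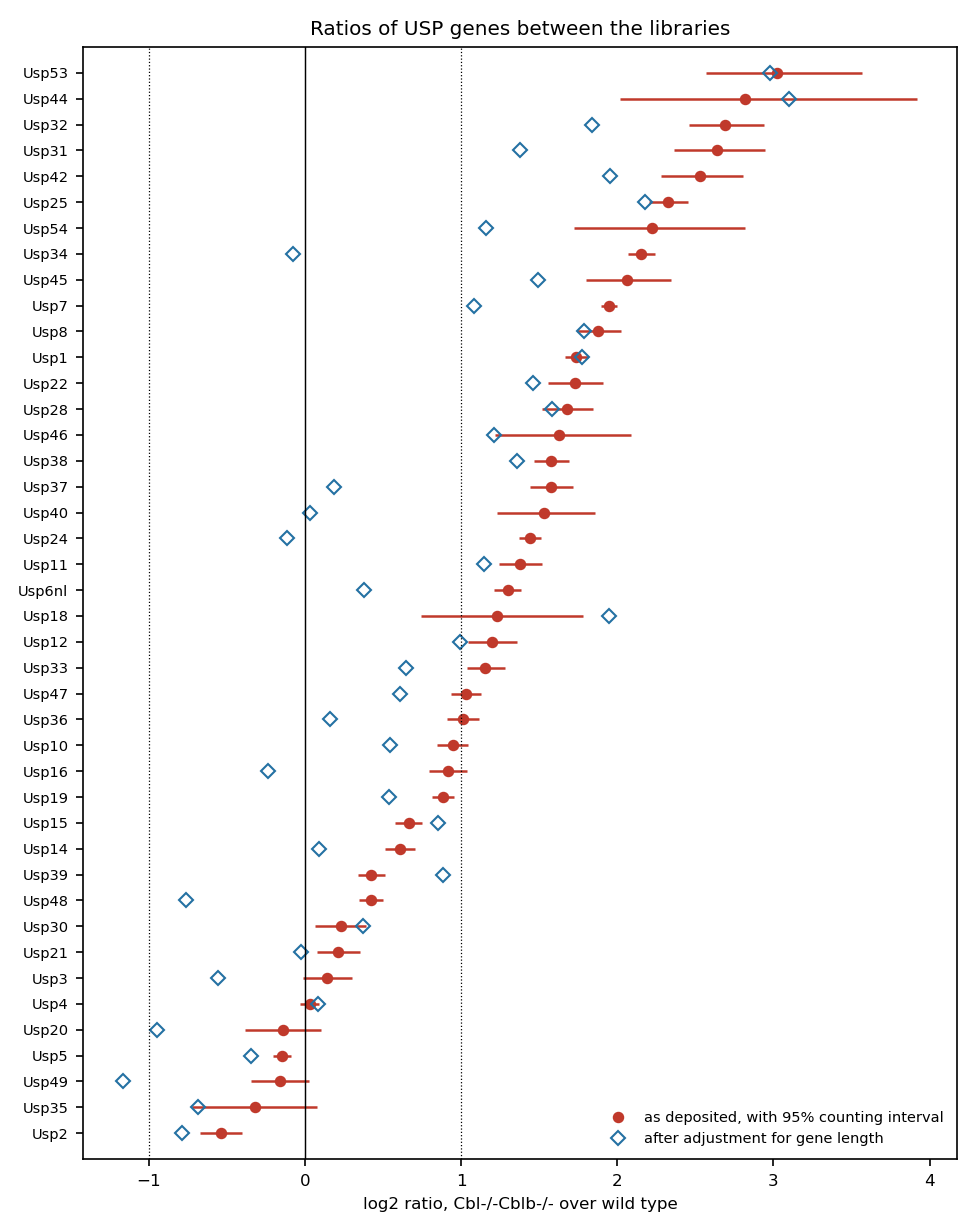
Log2 ratio of the library with the Cbl-/-Cblb-/- label over the library with the wild type label (horizontal axis) for the 42 USP genes over the floor, as deposited with 95% counting intervals (filled circles and bars) and after adjustment for gene length (open diamonds), with dotted lines at 2-fold. As deposited, 26 genes lie at or above the upper line, and after adjustment 17 do, with Usp34 moving the farthest toward 0.

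Members known from immune and cytokine signalling included 4 of 6 at least 2-fold higher, against 27.8% of all genes, and 3 of 6 after length adjustment, against 21.1%. Both counts include Usp18, which passed the floor only in the library with the Cbl-/-Cblb-/- label and so was bound to differ as deposited. Usp25, which acts on TRAF adaptors, had 4097 normalized reads in the library with the Cbl-/-Cblb-/- label and 817 in the library with the wild type label. It was 5.01-fold higher (4.60 to 5.47), and its adjusted log2 ratio of 2.18 was the third highest of the members. Usp25 and Usp28 are close paralogs, and both were more than 3-fold higher. Usp38 had 3099 and 1039 normalized reads in the Cbl-/-Cblb-/- and wild type libraries, 2.98-fold higher (2.76 to 3.23; adjusted 1.36), with exons of an antisense gene over 20.5% of its exon bases.

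Usp18, the interferon-induced protease that removes ISG15, rested on 189 reads in the library with the Cbl-/-Cblb-/- label and 39 in the library with the wild type label. Normalized, these were 132 and 55.8, 2.37-fold higher (1.67 to 3.43), and since the gene is short for a USP (1770 bases) its adjusted log2 ratio was larger, at 1.95. Usp34, the longest member with 18453 bases, had 7443 and 1671 normalized reads in the Cbl-/-Cblb-/- and wild type libraries, 4.45-fold higher (4.19 to 4.74). Its adjusted ratio was -0.08. Among the genes fitted, 56 were of that length or above, and exons of Ahsa2 on the other strand overlap 11.6% of its exon bases.

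The paralogs Usp4, Usp15 and Usp11 had unlike ratios as deposited. Their intervals cover counting error only, so a difference among them was not tested. Usp4 had 4755 normalized reads in the library with the Cbl-/-Cblb-/- label and 4663 in the library with the wild type label, a ratio of 1.02 (0.978 to 1.06). Usp15 had 3354 and 2119 in the Cbl-/-Cblb-/- and wild type libraries, 1.58-fold higher (1.49 to 1.68). Its log2 ratio of 0.66 was 0.85 when adjusted on the deposited length and -1.15, past the 2-fold line in the other direction, when adjusted on M21 exon lengths, where its exons add up to 5.14 times the deposited length. Usp11 had 1916 and 737, 2.60-fold higher (2.37 to 2.86). Adjusted on M21 exon lengths, Usp4 stood at -0.76, above Usp15, and Usp11 at 1.35. Sart3, which brings USP4 and USP15 to the spliceosome, stood at -0.05.

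Of 8 members of membrane traffic and organelles 4 were at least 2-fold higher and 0 lower, against 27.8% and 23.3% of all genes, and after length adjustment 2 of 8 were higher, against 21.1%. Usp32, a protease of the Golgi and late endosomes, had 1473 normalized reads in the library with the Cbl-/-Cblb-/- label and 227 in the library with the wild type label, 6.47-fold higher (5.51 to 7.66; adjusted log2 ratio 1.84). Usp8, which acts on endosomal receptors and on the ESCRT-0 sorting complex and so opposes Cbl-driven receptor degradation, had 2469 and 671 in the Cbl-/-Cblb-/- and wild type libraries, 3.68-fold higher (3.34 to 4.06; adjusted 1.79). Usp6nl stood at 1.30 (adjusted 0.38).

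Usp33 and Usp20, a paralog pair that acts on G protein-coupled receptors, differed: Usp33 had 2165 normalized reads against 971, 2.23-fold higher (2.05 to 2.42), and Usp20 had 275 against 303, a ratio of 0.906 (0.764 to 1.08). Usp33 did not keep its call, with a log2 ratio of 0.64 after length adjustment, 0.26 with GC content added and 0.20 on M21 exon lengths. Exons of antisense genes overlap 24.4% of the exon bases of Usp33. Usp19, anchored in the endoplasmic reticulum, had 5061 and 2745 normalized reads in the Cbl-/-Cblb-/- and wild type libraries (log2 ratio 0.88, adjusted 0.54). The mitochondrial Usp30 had a ratio of 1.17 (1.05 to 1.31), and Usp35 had 99.3 and 124 normalized reads, a ratio of 0.797 (0.606 to 1.05).

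The nucleolar protease Usp36 had 2894 normalized reads in the library with the Cbl-/-Cblb-/- label and 1436 in the library with the wild type label, 2.02-fold higher (1.88 to 2.16; adjusted log2 ratio 0.16). Usp39, a splicing factor of the tri-snRNP with a USP fold but no protease activity, had 2709 and 2017 in the Cbl-/-Cblb-/- and wild type libraries, 1.34-fold higher (1.26 to 1.43; adjusted 0.89).

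Members without a role assigned here held the highest ratio of all. Usp53, which encodes a tight junction-associated protein, had 437 normalized reads in the library with the Cbl-/-Cblb-/- label and 52.9 in the library with the wild type label, 8.25-fold higher (5.92 to 11.8; adjusted log2 ratio 2.98). The log2 ratio of Usp53 was 2.39 after adjustment for length and GC content and 1.67 on M21 exon lengths. Usp53 passed the floor only in the library with the Cbl-/-Cblb-/- label. Its paralog Usp54 had 217 and 45.8, 4.75-fold higher (3.29 to 7.06; adjusted 1.16), and Usp31 had 942 and 150.2, 6.27-fold higher (5.14 to 7.72; adjusted 1.38). Usp40 and the large Usp24 had log2 ratios of 1.53 and 1.44 as deposited, and of 0.03 and -0.12 after adjustment.

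Of the members under the floor, Usp50 was the one with more than 20 reads in a library, with 1 read in the library with the Cbl-/-Cblb-/- label and 23 in the library with the wild type label. Usp26, a germ line gene, had 13 and 0, at least 2.12-fold higher against the floor of 3 reads, with a counting interval that began at 1.49-fold. Usp43 and Usp17la had 0 reads in the library with the Cbl-/-Cblb-/- label and 1 in the library with the wild type label. The other multicopy Usp17-like genes (Usp17lb, Usp17lc, Usp17ld and Usp17le) had 0 in both, and near-identical copies make their read assignment uncertain.

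Per kilobase of deposited length, the order of the members was similar in both libraries, with a Spearman's rho of 0.88 across the 42 genes, which share the 2 libraries and their lengths. The 5 highest levels in the library with the Cbl-/-Cblb-/- label were those of Usp7 (2277 normalized reads per kilobase), Usp1 (2118), Usp4 (1296), Usp39 (1117) and Usp5 (1096). In the library with the wild type label they were those of Usp4 (1271), Usp5 (1213), Usp39 (832), Usp15 (657) and Usp1 (635), with Usp7 at 590.4. For 8 of the 42 genes the exons of GENCODE M21 add up to more than 1.5 times the deposited length, among them Usp15 (5.14 times), Usp53 (3.13 times) and Usp4 (2.35 times), so their levels per kilobase depend on the gene model. Per kilobase of M21 exons, an alternative chosen after seeing the data, Usp4 had 551 and 540.4 normalized reads in the Cbl-/-Cblb-/- and wild type libraries, below Usp1 and Usp7 in both, and Usp15 had 202 and 128.

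Counts for other deubiquitinase families carry no test. Of 33 genes over the floor from the OTU, UCH, Josephin, JAMM and MINDY families and of the USP fold under other names, 10 (30.3%) were at least 2-fold higher and 6 lower, near the shares of 27.8% and 23.3% of all genes, with a median log2 ratio of 0.18 (adjusted -0.10). The 3 of the USP fold (Cyld, Pan2 and Uspl1) were taken by fold alone, whatever their activity. Among 13 OTU genes 5 were higher and 3 lower. Otud4 stood at 2.36 (adjusted 1.44), Vcpip1 at 1.83 (adjusted 0.64) and Otud1 at 1.72 (adjusted 2.04), and Otulin, which removes linear ubiquitin chains, at -1.77 (adjusted -0.92).

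Among 7 JAMM metalloproteases, Mysm1, an H2A deubiquitinase needed for B cell development in mice, had 1555 normalized reads in the library with the Cbl-/-Cblb-/- label and 225 in the library with the wild type label, 6.92-fold higher (5.89 to 8.19; adjusted log2 ratio 1.72), whereas Mpnd stood at -1.90 (adjusted -1.39). The proteasome subunit Psmd14 stood at -0.55. Josd2, a Josephin gene, was lower at -2.18 (adjusted -1.73), and of 4 UCH genes Bap1, the tumour suppressor that acts on H2A, was higher at 1.25 (adjusted 1.03) and Uchl1 lower at -1.07 (adjusted -0.28). Cyld, a USP-fold inhibitor of NF-kappaB signalling outside the Usp names, had 5272 and 1684 normalized reads in the Cbl-/-Cblb-/- and wild type libraries, 3.13-fold higher (2.94 to 3.33; adjusted 0.73). Of the 3 MINDY genes 2 were at least 2-fold higher, against 27.8% of all genes, led by Fam63b at 2.20 (adjusted 1.28). After adjustment for length and GC content 0 of 3 were, against 18.9% of all genes, with Fam63b at 0.91.

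**Figure D4:**
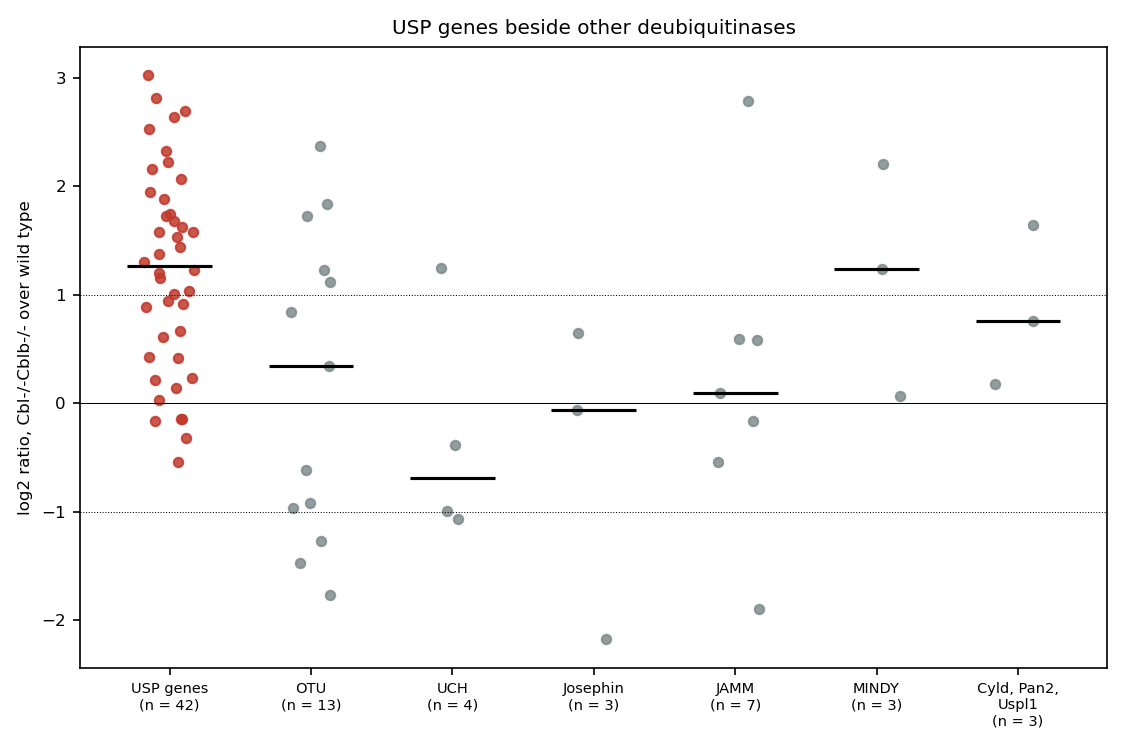
Log2 ratio of the library with the Cbl-/-Cblb-/- label over the library with the wild type label (vertical axis) for genes over the floor in the USP family, other deubiquitinase families (horizontal axis), 1 point per gene, with bars at group medians and dotted lines at 2-fold. The median of the 42 USP genes is 1.26, and that of the 13 OTU genes is 0.34.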

How the data were processed

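RNA-seq of 2 libraries of sorted germinal centre B cells was analysed from 1 table of genes. Build GRCm38 and the tools DESeq2 1.4.5, featureCounts and TopHat2 2.0.10 are listed, with no role, in the submitters' processing notes. Libraries were Illumina TruSeq, sequenced as paired reads of 50 bases, per the labels. The deposited signal columns of the authors are, per the file headers, gene reads relative to library size. All values (100%) were whole multiples of the smallest one of their library within 0.001 read, so whole reads were recovered, with size factors of 1.43 (Cbl-/-Cblb-/-) and 0.699 (wild type). The FPKM, score (test statistic) and base mean columns deposited by the authors were not used, and log2 fold changes and p-values of the authors were only quoted as deposited. Gene lengths are the authors'.

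Log2 ratios use a pseudocount of 1. A count test on the recovered reads (edgeR's quasi-likelihood test) was not run. With 1 library per group it leaves 0 residual degrees of freedom and cannot be fitted. Intervals of ratios are exact conditional ones at 95%, reads carry no molecular identifiers, and a 0 was replaced by 3 reads per library for a lower bound. Length adjustment is a linear fit over all genes past the floor. It was run on simulated libraries with a length slope put in, which checks the code and cannot show how well the fit suits these data. GC content, exon lengths and overlaps came from GENCODE M21 (GRCm38), which held all 42 members over the floor. Python 3.11.15, numpy 2.4.6, scipy 1.17.1, R 4.3.3 and edgeR 4.0.16 (TMM factors) were used.

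Members, roles and lists were chosen with earlier results of these data known. Every member may be named; full values went to the 10 highest and 10 lowest ratios, the 5 highest levels per library and the 2 largest absolute ratios per role, with up to 4 genes of each other list, all USP partners apart from some that are not reported here, Cbl and Cblb. Partners are therefore given singly, with no count or median over them. Alternatives were other scalings, centring, pseudocounts, floors and adjustments.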

Additional observations from a re-analysis of the deposited data

How the results depend on the processing

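No paired analysis was possible because each group holds 1 library, and for the same reason no library could be left out. The count of 26 higher USP genes, out of 42, was 20 to 31 under TMM factors, both pseudocounts, all floors, centring and both scalings to total reads. A floor of 500 left 34 members (20 higher), and no floor left 48 (29 higher). After adjustment for length the count was 17, for length and GC content 15, and for length on GENCODE M21 exon lengths 18. The M21 alternative was chosen after seeing the data. The count of lower USP genes, 0 as deposited, was 1 with a floor of 20 (Usp50), 3 with no floor (Usp50, and Usp43 and Usp17la on 1 read each), 1 adjusted on deposited length (Usp49, -1.17) and 1 adjusted on M21 lengths (Usp15, -1.15, where Usp49 was at -0.94). Higher calls were lost by 9 members with length adjustment (Usp12, Usp24, Usp33, Usp34, Usp36, Usp37, Usp40, Usp47 and Usp6nl), by those and Usp7, Usp45 and Usp46 (12) with GC content added, and by 9 on M21 lengths, with Usp46 in place of Usp12. Scaling to total reads shifted the median of all genes by 0.55 and put 41.9% of genes higher and 13.7% lower, with 31 USP genes higher.

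The median log2 ratio of the USP genes was 1.78 scaled to total reads, 1.77 scaled without immunoglobulin genes, 1.11 centred on the median of all genes, 0.63 length-adjusted, 0.76 length- and GC-adjusted and 0.40 on M21 lengths. The median of the other deubiquitinases was 0.69 under both scalings to total reads, 0.028 centred, -0.10 length-adjusted, -0.25 length- and GC-adjusted and -0.0047 on M21 lengths. Of these genes 3 were lower under both scalings to total reads, 4 were higher and 3 lower after adjustment for length and GC content, and 6 were higher on M21 lengths. Cbl stood at 3.32 and 3.31 under the scalings to total reads with and without immunoglobulin genes, 2.49 length-adjusted, 2.31 length- and GC-adjusted and 1.48 on M21 lengths, and Cblb at 2.02, 2.01, 0.91, 0.76 and 0.43, and at 1.35 centred.

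Signs of members called higher turned for Usp34 (-0.077) and Usp24 (-0.12) with length adjustment, for Usp34 (-0.30), Usp24 (-0.093), Usp37 (-0.069) and Usp40 (-0.0092) with length and GC content, and for Usp47 (-0.47) on M21 lengths. By construction these alternatives take out what goes with length or GC content. Usp5, Usp20, Usp35 and Usp49, below 0 as deposited, were above 0 under both scalings to total reads, and Usp3 and Usp4 were below 0 when centred. Depth limits Usp44, Usp18, Usp46, Usp54 and Usp53, which had 11 to 53 reads in the library with the wild type label.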
